A study of Homo sapiens with 28 samples.

Results

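Replicate 1 was compared with replicate 2 among the s4U-labelled HEK 293T libraries made under drop-out handling. The 6 libraries, chosen by their titles, are replicate 1 and replicate 2 of each of 3 nucleotide conversion chemistries, out of 28 samples in the series, of which 18 have reads in the count table analysed here. HEK 293T is a transformed human embryonic kidney cell line, labelled here as wild type. All 6 libraries came from cells given 100 μM 4-thiouridine (s4U) for 2 hours. Each chemistry gave 2 of them: sodium periodate with trifluoroethylamine (TimeLapse, TL), iodoacetamide alkylation (SLAM) and osmium tetroxide with ammonia (TUC). The labels place the TL chemistry at an acidic pH. The same chemistries were also run on 6 labelled libraries under improved handling and on 6 unlabelled libraries, 1 for each chemistry and handling, which serve for comparison. The labels do not say that libraries of the same number came from the same culture, or that the numbers mark separate cultures, so p-values measure the spread between these samples, which may be technical.

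In nucleotide recoding RNA-seq, cells build s4U into the RNA they make during the label. A chemical step then turns s4U into a base that reverse transcriptase reads as C, so a read from new RNA carries T-to-C mismatches at some of its T positions. A read with at least 1 such mismatch is called converted here, and the share of converted reads of a gene rises with how fast its RNA is replaced. Drop-out is the loss of s4U-RNA, or of reads rich in T-to-C mismatches, during handling and alignment, and it lowers the apparent share of new RNA. Which steps set the 2 handlings apart is not described in the labels.

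The 6 libraries held between 2302209 reads (TUC, replicate 2) and 5813077 reads (SLAM, replicate 2), of which 892727 to 2735236 were exonic reads of an identified gene. SLAM replicate 2 stood apart in depth. The SLAM pair also differed most in the share of reads on chromosome 21 and 2 unplaced contigs that take ribosomal RNA reads, 44.9% in replicate 1 and 28.1% in replicate 2. The unlabelled SLAM drop-out library had 42.7% there, and the 4 labelled TL and TUC drop-out libraries 30.6% to 39.7%. Gene identifiers of the count table stand in for symbols, with which the gene table used here does not pair them. Markers of HEK 293T cells and 24 of 25 gene lists could therefore not be looked up, and no sequence is shown.

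Replicate 2 had a lower share of converted reads than replicate 1 in every chemistry. The exonic converted share was 15.1% in TL replicate 1 and 10.4% in TL replicate 2. It was 15.9% and 11.1% in the SLAM pair, and 17.4% and 12.5% in the TUC pair. The 3 replicate 1 libraries all lay above the 3 replicate 2 libraries. Counting error was far smaller than these gaps, since the 95% Wilson intervals spanned at most 0.152 percentage points; they cover counting error only. The paired difference was -4.77 ± 0.09 percentage points (SD, n = 3 chemistries; exact sign-flip test, two-sided, p = 0.25, the smallest that 8 arrangements can give).

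The unlabelled drop-out libraries, which measure the background of mismatches, had exonic converted shares of 2.72% (TL), 3.28% (SLAM) and 2.56% (TUC). Above that background replicate 2 had 0.620 (TL), 0.624 (SLAM) and 0.672 (TUC) of the converted share of replicate 1. Reads given to the introns of a gene showed the same direction: their converted share was lower in replicate 2 in 3 of 3 pairs, by -9.17 ± 2.98 percentage points (SD, n = 3; exact sign-flip p = 0.25). Between 54.2% and 69.0% of those reads lay on chromosome 21 and those unplaced contigs. Without them the intronic converted share was 46.9% in TL, 39.8% in SLAM and 50.8% in TUC in replicate 1, and 29.6%, 20.4% and 33.1% in replicate 2. That is a paired difference of -18.1 ± 1.07 percentage points (SD, n = 3; exact sign-flip p = 0.25), against -0.86 ± 5.33 with no constant sign under improved handling.

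Under improved handling the pairs were not uniform. The exonic converted share went from 26.5% to 24.9% in TL and from 33.2% to 29.3% in TUC, and from 24.7% to 25.3% in SLAM. The drop-out difference was more negative than the improved-handling difference in 3 of 3 chemistries, by -3.01 (TL), -5.28 (SLAM) and -0.90 (TUC) percentage points, a mean of -3.06 ± 2.19 (SD, n = 3; exact sign-flip p = 0.25, again the smallest possible). Over all reads, introns included, it was -2.64 in TL and -8.06 in SLAM but 0.40 in TUC, a mean of -3.43 ± 4.29 (exact sign-flip p = 0.50). The share of reads with at least 2 mismatches likewise had no constant sign, at 0.02, -5.29 and 2.31. The number of mismatches per converted read, counted over all reads, behaved differently. It was lower in replicate 2 under both handlings, by -0.38 ± 0.09 under drop-out and -0.48 ± 0.38 under improved handling (SD, n = 3 each), in 6 of 6 pairs (exact sign-flip p = 0.031, the smallest that 64 arrangements can give; that test takes the 6 pairs as independent). The difference between handlings in this measure had no constant sign (mean 0.10 ± 0.35, SD, n = 3; exact sign-flip p = 0.75). With HISAT2 alignments the drop-out difference was smaller, -0.20 mismatches per converted read, and that of the converted share over all reads was -3.21 against -5.71 percentage points.

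**Figure D1:**
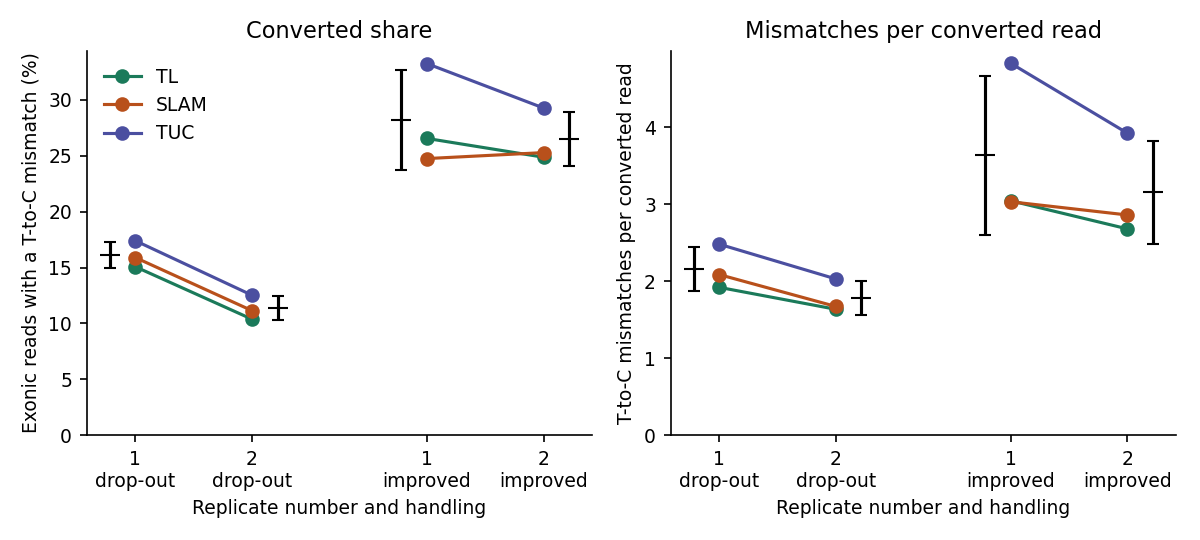
Converted share of exonic reads (left, percent) and T-to-C mismatches per converted read over all reads (right) in the 12 labelled libraries, with lines joining replicate 1 and 2 of a chemistry and black bars giving the mean and SD of the 3 chemistries. All 3 drop-out lines fall in both panels, while the SLAM line rises from 24.7% to 25.3% under improved handling on the left.

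The converted share, background of mismatches included, was lower by a similar ratio in reads with few and with many T positions. Exonic reads were sorted into 6 bins by that number, and within each bin the converted share of replicate 2 was 0.661 to 0.763 of that of replicate 1, in all 18 combinations of bin and chemistry. Averaged over chemistries the ratio was 0.706 in reads with the fewest T positions, 0.689 in the next bin and 0.717 in reads with the most. Under improved handling the corresponding mean ratios ran from 0.808 to 1.01, and 15 of 18 combinations were below 1.

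The density of mismatches among converted reads was also taken by bin. A converted read has at least 1 mismatch by definition, which sets a lower limit on this density that is highest in reads with few T positions, so the bins are not compared with each other. In reads with the fewest T positions, converted reads of the drop-out libraries had 15.3 ± 0.648 mismatches per 100 T in replicate 1 and 15.0 ± 0.373 in replicate 2 (SD, n = 3). In reads with the most T positions they had 5.51 ± 1.39 and 3.96 ± 0.873. The density was lower in replicate 2 in 17 of 18 combinations under drop-out and in 18 of 18 under improved handling.

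**Figure D2:**
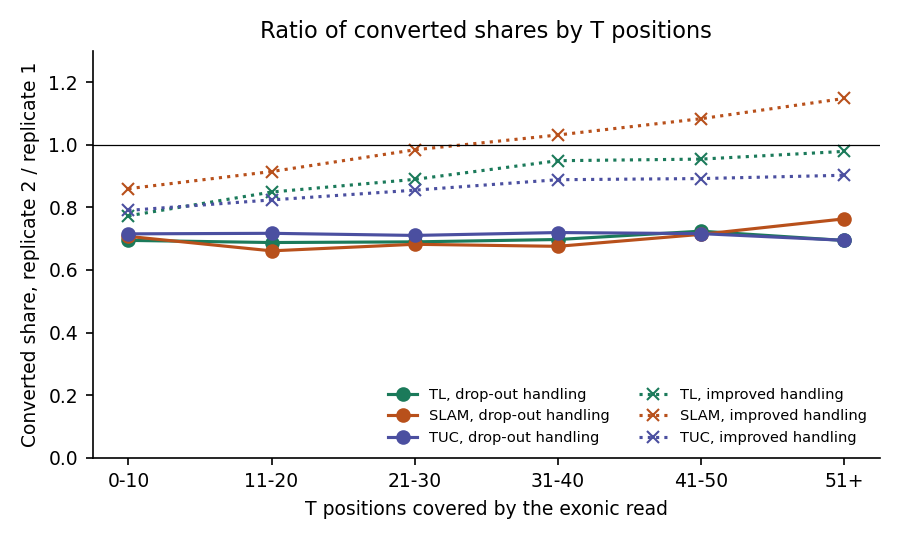
Ratio of the exonic converted share in replicate 2 to that in replicate 1 (vertical axis) by the number of T positions in a read (horizontal axis, 6 bins), for 3 chemistries under drop-out (solid) and improved handling (dotted). The drop-out lines stay between 0.661 and 0.763, and the improved-handling lines climb with T positions.

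T content itself did not shift in a common direction. The number of T positions per exonic read changed by -0.71 (TL), 1.54 (SLAM) and 0.69 (TUC) from replicate 1 to 2, a mean of 0.50 ± 1.14 (SD, n = 3; exact sign-flip p = 0.75). Over all reads the change was -1.34, 4.43 and -0.31; the SLAM pair, which differed in ribosomal reads, decided the sign of the mean. The intronic share of reads likewise changed by 1.06, 0.96 and -1.54 percentage points.

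The counts of individual genes also differed between the replicates. Exonic counts of 8744 genes were tested with chemistry as the pairing term (edgeR's quasi-likelihood test). At a Benjamini-Hochberg adjusted p under 0.05, 1031 genes (11.8%) were called: 421 (4.81%) were higher and 610 (6.98%) lower in replicate 2. The difference had the same sign in all 3 chemistries for 1018 of the 1031, which follows in part from calling them in 1 fit over the 3 chemistries. Over all genes tested it had the same sign in 4038 (46.2%), against 3120 of 11604 (26.9%) under improved handling. An absolute log2 difference above 1 was reached by 872 genes, of which 402 were called. DESeq2 called 290 genes, all among the 1031, and leaving out a TL or TUC library lowered the count to between 318 and 554. With no filter beyond 1 read, 960 of 18344 genes were called, 477 higher and 483 lower, so the excess of lower calls depended on the filter. In unconverted reads alone 500 genes (6.59%) were called, 170 (2.24%) higher and 330 (4.35%) lower, and 484 of them were among the 1031. In intronic reads 23 of 5190 genes (0.443%) were called, 12 (0.231%) higher and 11 (0.212%) lower. An unadjusted p under 0.05 (edgeR's quasi-likelihood test) was reached by 930 of these, against 2304 of the 8744 genes in exonic counts.

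Across the 2343 genes whose exonic reads averaged 100 or more per library, the log2 replicate difference of a chemistry correlated with that of another at r = 0.50 (TL and SLAM), 0.64 (TL and TUC) and 0.47 (SLAM and TUC). Under improved handling the same values over 3692 genes were 0.06, 0.09 and 0.01. Genes are not independent replicates, and these are given as descriptions. The spread within a pair was also wider under drop-out: a chi-square of the counts over its degrees of freedom was 5.96 (TL), 8.68 (SLAM) and 4.85 (TUC), against 2.32, 2.13 and 2.19 under improved handling, where 1 would be counting noise alone.

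**Figure D3:**
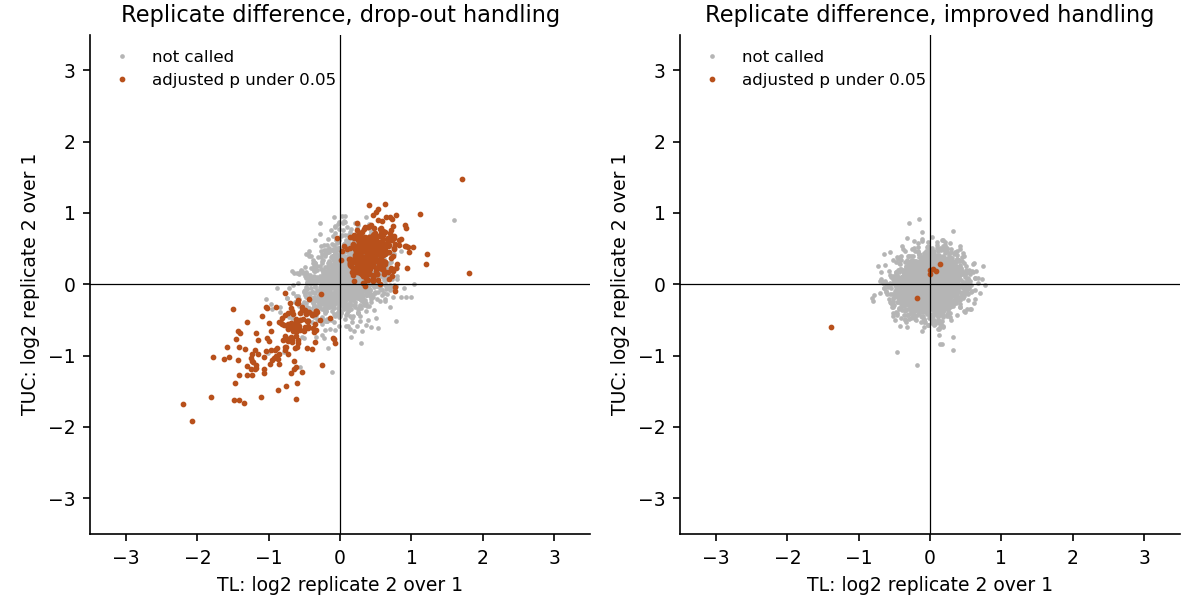
Log2 difference of exonic counts, replicate 2 over replicate 1, in the TL pair (horizontal) and the TUC pair (vertical) for genes averaging 100 or more exonic reads per library, 2343 under drop-out (left) and 3692 under improved handling (right). Orange points passed adjusted p under 0.05; under drop-out they lie along the diagonal in both directions, and under improved handling almost none are called.

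Among called genes of constant sign that averaged 100 or more exonic reads, ENSG00000047410 and ENSG00000116984, both on chromosome 1, fell most. ENSG00000047410 had 216 CPM (exonic reads scaled to a common, TMM-adjusted library size) in TL replicate 1, 158 in SLAM and 146 in TUC, against 45.8, 57.5 and 44.6 in replicate 2. The 2 groups did not overlap, and the fall was 3.44-fold (log2 -1.78, SE 0.18, edgeR adjusted p = 5.55e-09). ENSG00000116984 went from 167, 203 and 159 CPM in replicate 1 (TL, SLAM, TUC) to 64.9, 56.7 and 48.8 CPM in replicate 2, again without overlap (log2 -1.64, SE 0.17, edgeR adjusted p = 1.07e-08). In the unlabelled TL libraries ENSG00000047410 had 100 CPM under drop-out and 1032 CPM under improved handling, there scaled to all exonic reads. In reads without a mismatch both fell further (log2 -2.03 and -1.84), and in converted reads alone neither passed the threshold (log2 -0.44 and -0.83).

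The largest rises by the same rule were those of ENSG00000163682 on chromosome 4 and ENSG00000200488 on chromosome 2. ENSG00000163682 had 53.7, 65.6 and 54.9 CPM in replicate 1 (TL, SLAM, TUC) and 178, 135 and 155 CPM in replicate 2. Its groups did not overlap, and it rose 2.68-fold (log2 1.42, SE 0.18, edgeR adjusted p = 5.85e-07). Its converted share went the other way, from 16.7% ± 0.947 to 5.95% ± 0.894 (SD, n = 3). Its unlabelled drop-out libraries had 2.04% (TL), 5.56% (SLAM) and 6.74% (TUC), so replicate 2 was below that background in SLAM (5.01%) and TUC (6.04%). Relative to library totals this fall was not called (edgeR adjusted p = 0.49). ENSG00000200488 is uncertain. It had 433, 242 and 220 CPM in replicate 1 and 1518, 974 and 246 CPM in replicate 2, so the TUC pair hardly differed (log2 1.39, SE 0.17, edgeR adjusted p = 5.79e-07). With STAR alignments its difference was -0.21 on the log2 scale and with HISAT2 0.39, neither past the threshold, and DESeq2 gave 1.37 with an adjusted p of 0.137.

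Few genes differed between the replicates under improved handling. Of 11604 genes tested there, 10 (0.0862%) were called by edgeR's quasi-likelihood test, 7 higher (0.0603%) and 3 lower (0.0259%) in replicate 2, with 684 at an unadjusted p under 0.05; DESeq2 called 0. Of the 1031 genes called under drop-out, 1030 were also tested under improved handling, and 3 were called in both. ENSG00000251562 on chromosome 11 was lower in replicate 2 under both (log2 -1.45 and -0.21). ENSG00000207513 on chromosome 1 was lower under drop-out and higher under improved handling (log2 -1.07 and 0.91), and ENSG00000276168 on chromosome 14 was higher and then lower (log2 0.30 and -0.71). By chemistry (TL, SLAM, TUC) the drop-out difference of ENSG00000207513 was -0.10, -2.10 and -0.76, so the TL pair hardly differed. That of ENSG00000276168 was 0.37, 0.46 and 0.08. These 3 genes are named because they are few, after their values were seen.

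The difference between the handlings was tested directly, as an interaction over the 12 labelled libraries. It was called for 819 of 11476 genes (7.14%), with 220 (1.92%) higher and 599 (5.22%) lower in the drop-out difference than in the improved-handling difference (edgeR's quasi-likelihood test). DESeq2 called 383, with a split of 55 higher and 328 lower. With any 1 of the 12 libraries left out, edgeR called 396 to 1054. All 4 genes named above passed this test by edgeR, with differences between handlings of -1.67 (ENSG00000047410), -1.57 (ENSG00000116984), 1.47 (ENSG00000163682) and 1.48 (ENSG00000200488) on the log2 scale. They were chosen by their drop-out difference, which enters this test again, so their passing is a description only.

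Most genes called lower in replicate 2 were also lower under drop-out than under improved handling in RNA without s4U. For each gene, the handling response was taken as the log2 level in the 3 unlabelled improved-handling libraries minus that in the 3 unlabelled drop-out libraries, which share no library with the replicate comparison. Among 8233 tested genes with enough reads for this measure, its median was -0.22, and 3733 (45.3%) were higher under improved handling. Of 582 genes called lower in replicate 2, 541 (93.0%) were higher under improved handling, with a median response of 1.93. Of 421 called higher, 40 (9.50%) were, with a median of -1.21. The genes called higher were also more deeply read, with a median of 251 exonic reads per library against 51.1 in those called lower and 45.5 in all genes tested; the part of depth in these contrasts was not tested. The genes called lower also had more T positions per exonic read (median 36.5) than those called higher (31.2) or all genes tested (34.0). Their converted share under improved handling, above the unlabelled background, had a median of 26.6 percentage points, as in all genes (26.7), against 16.5 in genes called higher.

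The unlabelled drop-out libraries lay between the replicates for these genes. For the 610 genes called lower, the median log2 level in the unlabelled library was below replicate 1 by -0.58 (TL), -0.54 (SLAM) and -0.63 (TUC), and above replicate 2 by 0.57, 0.52 and 0.50. For the 421 called higher it was 0.27, 0.26 and 0.26 above replicate 1, and -0.12, -0.21 and -0.12 relative to replicate 2. Over all 8744 genes tested it was 0.02, -0.01 and 0.01 from replicate 1 and 0.13, 0.23 and 0.11 above replicate 2. These levels were scaled to plain read totals of the tested genes, without the TMM adjustment. On that scale the median of replicate 2 minus replicate 1 over all genes tested was -0.09 (TL), -0.23 (SLAM) and -0.09 (TUC). In the TMM-adjusted fit it was -0.0043, so the offsets depend on the scaling. The genes were chosen by the replicate difference, so a position between the 2 replicates is given as a description only.

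Classes of genes were then compared. For 1920 genes every library (18 in all) held 50 or more exonic reads, and their median log2 difference was 0.13, with 285 (14.8%) called higher and 146 (7.60%) lower. This minimum leaves out genes that fell to low counts in any library. The classes were therefore also made from the 2343 genes averaging 100 or more exonic reads over the 6 labelled drop-out libraries. That set was added after seeing the data. Its median was 0.15, with 14.0% called higher and 6.91% lower, against a median of -0.0043 over all 8744 genes tested. It was chosen on counts of the compared libraries, unadjusted for depth. Genes can therefore enter it through a single deep library such as SLAM replicate 2. Turnover was taken from the converted share in the labelled improved-handling libraries, above the unlabelled background. From the lowest to the highest of 5 turnover classes the median log2 difference was 0.21, 0.13, 0.15, 0.08 and -0.01. The highest class was below the lowest by -0.19 (TL), -0.26 (SLAM) and -0.18 (TUC), a mean of -0.21 ± 0.04 (SD, n = 3; exact sign-flip p = 0.25). In the 2343 genes it was -0.17 ± 0.02, and lower in each chemistry. From the joint fit over chemistries the turnover difference was -0.22, and only -0.034 in unconverted reads alone. The cause of that change was not tested. Under improved handling the turnover classes differed by -0.01 ± 0.08 (SD, n = 3), with no constant sign.

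In the turnover classes of the 1920 genes the median log2 odds ratio of a converted read, replicate 2 over 1, was -0.67 in the highest turnover class and -0.31 in the lowest. These odds include the background of mismatches, which is a larger part of the share in the lowest class. Above the unlabelled drop-out library of the same chemistry, with the reads of a class pooled, replicate 2 kept 0.726 ± 0.039 of the converted share of replicate 1 in the highest class and 0.539 ± 0.097 in the lowest (SD, n = 3 chemistries), so the order of the classes turned.

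T content gave a gradient that depended on the chemistry in the 1920 and in the 2343 genes. The median log2 difference ran 0.18, 0.15, 0.14, 0.09 and 0.04 from the lowest to the highest of 5 classes of T positions per exonic read. The highest class was below the lowest by -0.34 in SLAM, by -0.09 in TL and by -0.01 in TUC (mean -0.14 ± 0.17, SD, n = 3; exact sign-flip p = 0.25). In the 2343 genes it was -0.31 in SLAM, -0.06 in TL and 0.04 in TUC, so without a constant sign. In 3436 genes averaging 100 or more exonic reads over the 18 libraries it was -0.63, -0.51 and -0.48. That set was added after seeing the data, and genes can enter it through improved-handling reads alone. Under improved handling the 1920 genes gave 0.02 ± 0.04.

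The handling response separated the genes most among the 5 properties compared. The first 3 of 5 classes had medians of 0.18, 0.20 and 0.19, the fourth 0.09, and the class lowest under drop-out relative to improved handling -0.22. Of its 384 genes 118 were called lower (30.7%) and 18 higher, while in the lowest class 0 were called lower and 80 higher. The highest class was below the lowest by -0.43 ± 0.09 over chemistries (SD, n = 3; exact sign-flip p = 0.25), and by -0.36 ± 0.11 in the 2343 genes. There the top class of 469 genes held 143 called lower and 30 higher, and the lowest class 3 lower and 76 higher. Intronic share gave -0.11 ± 0.05 and abundance, the level in unlabelled drop-out libraries, 0.19 ± 0.04. In the 2343 genes these were -0.08 ± 0.07 and 0.055 ± 0.013.

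These properties are related. Over the 1920 genes the handling response had a Spearman correlation of 0.33 with turnover, 0.36 with T content and -0.52 with abundance, and of -0.39 with the replicate difference, against -0.24 for turnover and -0.17 for T content. Genes were also split into 3 equal groups by turnover and 3 by handling response at once. The group with the highest handling response had the lowest median at each turnover level, 0.01, -0.04 and -0.12 from slow to fast. The group with the lowest response had 0.20, 0.19 and 0.17. The middle group had 0.28, 0.18 and 0.09, above the lowest-response group in slow genes and below it at the other turnover levels.

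**Figure D4:**
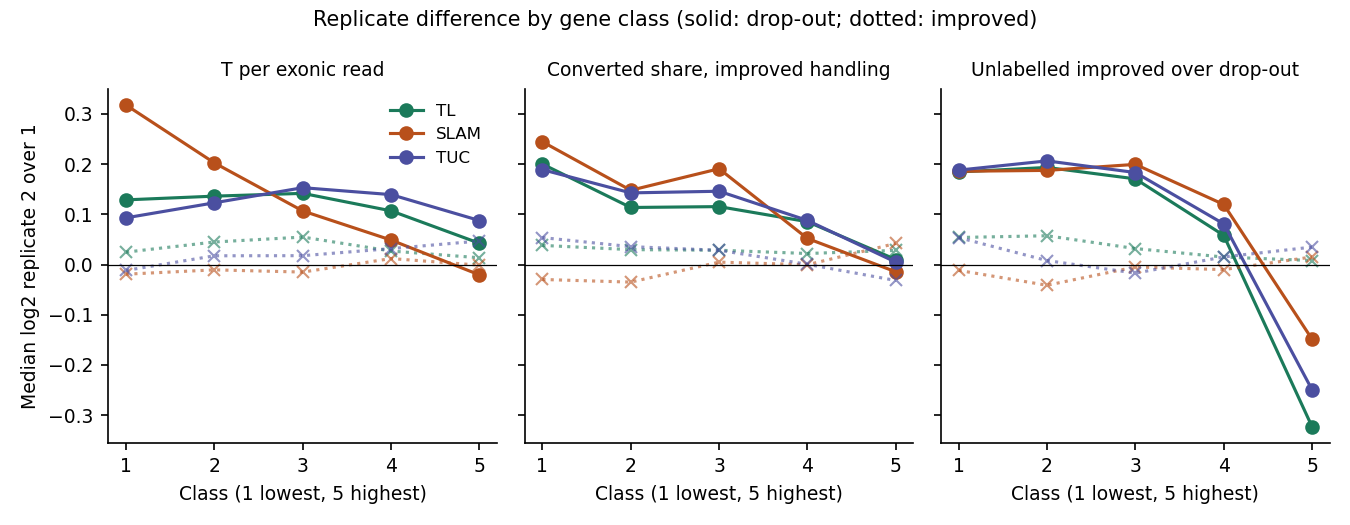
Median log2 difference, replicate 2 over 1, in 5 classes of 384 genes by T positions per exonic read (left), converted share under improved handling (middle) and handling response of unlabelled libraries (right), for each chemistry under drop-out (solid) and improved handling (dotted). The class with the highest handling response lies below 0 in all 3 chemistries, and the T content slope is steep in SLAM alone.

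The same order appeared along the chromosomes. The median log2 difference was lowest on chromosomes 13 (-0.45, 124 genes), 18 (-0.39, 117 genes) and 4 (-0.34, 261 genes), which are known as gene-poor and AT-rich, and below 0 there in each chemistry. It was highest on chromosome 19 (0.16, 588 genes), known as gene-dense and GC-rich. Genes called lower outnumbered those called higher by 31 to 4 on chromosome 4, and 53 were higher against 13 lower on chromosome 19, where the background over all genes is 4.81% higher and 6.98% lower. Over 23 chromosomes, the mitochondrial genome left out, the median difference had a Spearman correlation of -0.89 with the median handling response and of -0.74 with the median T positions per read; chromosomes share all libraries, and this is a description. Under improved handling the medians of the same chromosomes lay between -0.06 and 0.02. The mitochondrial genes had a median difference of -0.12 under drop-out and 0.19 under improved handling. Their median response, -1.22, was near that of chromosome 19, against the order by handling response. They had the most T positions per read of any chromosome (median 39.5). By chemistry their median difference under drop-out was -0.30 (TL), -0.04 (SLAM) and 0.08 (TUC). A link with T content was not tested.

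**Figure D5:**
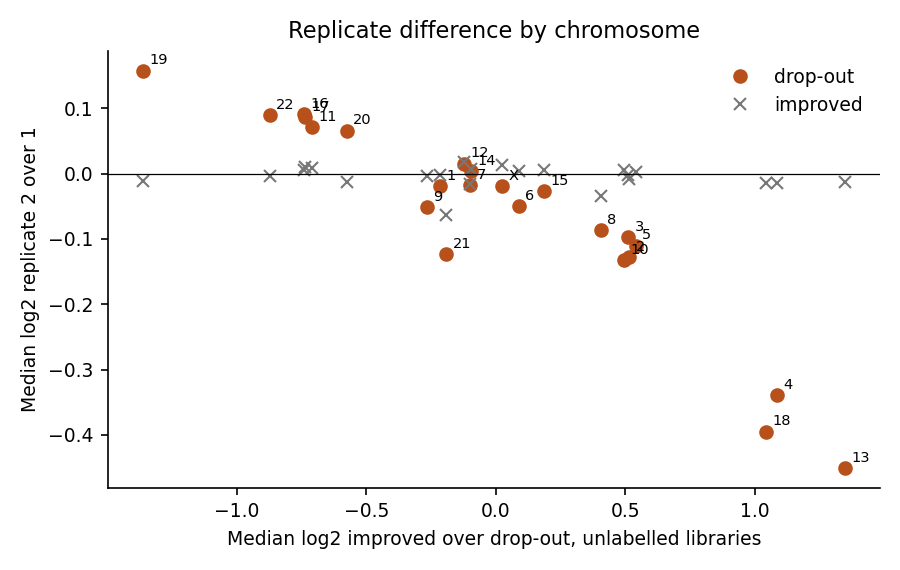
Median log2 difference of a chromosome's genes, replicate 2 over 1, under drop-out (circles, labelled by chromosome, without the mitochondrial genome) and improved handling (crosses), against the median log2 level in unlabelled improved-handling over unlabelled drop-out libraries. The circles fall from chromosome 19 at 0.16 to chromosome 13 at -0.45, while the crosses stay between -0.06 and 0.02.

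Gene by gene, the lower converted share of replicate 2 was spread over most genes deep enough to test. The test took 2651 genes for which none of the 6 libraries held fewer than 50 exonic reads. Of the genes called for their counts, that minimum kept 316 of 421 higher ones. It kept 157 of the 582 lower ones with enough reads for the handling response. The odds of a converted read were lower in replicate 2 for 2291 of the 2651 (86.4%), with a median log2 odds ratio of -0.50, an odds ratio of 0.706. The difference was called for 289 genes (10.9%), all of them lower (edgeR's quasi-likelihood test on converted against unconverted reads, adjusted p under 0.05). The unpaired fit called 177, and leaving out any 1 of the 6 libraries lowered the count by over 1.5 times, to between 61 (without TUC replicate 2) and 186 (without SLAM replicate 1). When each gene was set against its library's total of converted and unconverted reads, 1 gene (0.0377%) was called, ENSG00000067225 on chromosome 15 (log2 odds relative to the total 0.62, edgeR adjusted p = 0.048). Its converted share was 6.13% ± 0.485 in replicate 1 and 6.56% ± 0.037 in replicate 2 (SD, n = 3), higher in replicate 2 in TL and SLAM and lower in TUC (6.69% and 6.57%). The unlabelled drop-out libraries had 3.51% (TL), 5.67% (SLAM) and 2.29% (TUC), so that SLAM replicate 1, at 5.85%, lay close to the background.

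The 2 genes with the largest falls in converted share, among those called with a mean of at least 100 reads and lower in every chemistry, were ENSG00000133318 on chromosome 11 and ENSG00000008382 on chromosome 19. ENSG00000133318 had converted shares of 13.6%, 13.3% and 9.41% in replicate 1 (TL, SLAM, TUC) and of 1.54%, 2.08% and 2.08% in replicate 2, without overlap (log2 odds ratio -2.79, SE 0.60, edgeR adjusted p = 0.0028). The unlabelled drop-out values were 5.13%, 3.33% and 1.56%, above replicate 2 in TL and SLAM and below it in TUC. ENSG00000008382 went from 3.19%, 12.5% and 8.57% to 1.45%, 3.11% and 0 of 64 reads, which allows a share of up to 4.69% (log2 odds ratio -2.21, SE 0.73, edgeR adjusted p = 0.046). Its call was lost under every alternative run, at adjusted p-values of 0.072 to 0.54. The call of ENSG00000133318 was lost with STAR alignments (adjusted p = 0.073) and relative to library totals (adjusted p = 0.21), and kept under the other alternatives, each library left out included.

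Under improved handling 4062 genes could be tested for the converted share and 0 were called by edgeR, with 287 at an unadjusted p under 0.05. The median log2 odds ratio was -0.16, and 2922 genes (71.9%) were below 0. Of the 289 genes called for their converted share under drop-out, 82 (28.4%) were also called for their counts, against 473 (17.8%) of the 2651 genes tested. The called genes had a median of 361 reads per library against 188 in all genes tested, and the part of depth in this overlap was not tested.

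Mitochondrially encoded RNAs, transcribed from the mitochondrial genome and counted by their chromosome, had a lower converted share in replicate 2. Of 18 tested for counts under drop-out, 0 were called higher and 1 lower, against 4.81% and 6.98% over all genes, a share near the background; the median log2 difference was -0.30 in TL, -0.04 in SLAM and 0.08 in TUC. Their share of exonic reads was lower in replicate 2 in 3 of 3 pairs, by -0.88 (TL), -2.22 (SLAM) and -0.0032 (TUC) percentage points (mean -1.03 ± 1.11, SD, n = 3; exact sign-flip p = 0.25). Of 14 tested for converted reads, 13 were called lower against 10.9% of all genes. Their median log2 odds ratio was -0.60, near the -0.50 over all 2651 genes tested. Relative to library totals the 1 gene called was on chromosome 15, not a mitochondrial one. These RNAs are abundant, called genes as a whole had more reads, and the part of depth in the mitochondrial calls was not tested. Together, mitochondrial reads had converted shares of 29.2%, 26.4% and 31.1% in replicate 1 (TL, SLAM, TUC) and of 19.9%, 23.1% and 25.7% in replicate 2, again without overlap. Under improved handling 5 of 15 were called higher in replicate 2 by their counts, against 0.0603% of all genes. DESeq2 called 0 genes there, and without SLAM replicate 2 or either TUC library edgeR called only 2 genes of any kind higher. The mitochondrial share of exonic reads changed there by -0.089 (TL), 0.69 (SLAM) and 0.27 (TUC) percentage points.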

How the data were processed

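Cells, labelling and chemistries are as the labels give them; libraries came from total RNA with a stranded pico-input kit, per the labels' protocols. The authors deposited counts: the number of reads (n) of each library, aligner, setting, gene and intron status with a given number of T-to-C mismatches and T positions, per the file headers. The submitters' processing notes name GRCh38, cutadapt, HISAT2, STAR, HISAT, Picard and HTSeq without versions or roles; what the setting code D stands for is not given in the sources used here. No value of the authors' degradation rate table was used.

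Exonic reads with a gene identifier (HISAT-3N, setting D) were summed per gene. Genes were tested in R 4.3.3 with edgeR 4.0.16 (filterByExpr, TMM, quasi-likelihood test, terms for chemistry and replicate), with DESeq2 1.42.0 as an alternative, and p-values were adjusted over all genes tested. Per-chemistry log2 differences used a prior count of 2. Reads given to no gene stayed out. The fits were tested on simulated data. For drop-out counts they recovered 3.14% of changes of log2 0.5 and 89.2% of log2 2 (8342 genes each) and 54.8% of log2 1 (8334 genes), and for converted shares 53.5% of log2 1 (2651 genes), so small changes were mostly missed. Library values were tested by exact sign-flip permutation over chemistry pairs. Samples were paired by chemistry. Over all 8744 genes tested under drop-out, the replicate differences of 2 chemistries correlated at r of 0.34 to 0.40. Under improved handling r was 0.01 to 0.02 over 11604 genes. Named genes were to be the 10 highest and 10 lowest called genes of constant sign with a mean of at least 100 reads and a symbol, or 2 identifiers in each direction without symbols; for the converted share likewise 2. The rule, classes and lists were chosen with earlier results of these data known. The alternatives were other aligners, filters, read classes, normalization, pairing and each library left out.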

Additional observations from a re-analysis of the deposited data

Results flagged for a closer look

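The replicate difference was not the same under the 2 handlings: the interaction over the 12 labelled libraries was called for 819 genes by edgeR. Among the named genes, the drop-out difference minus the improved-handling difference was -1.67 for ENSG00000047410, -1.57 for ENSG00000116984, 1.47 for ENSG00000163682 and 1.48 for ENSG00000200488 on the log2 scale. Those genes were chosen by their drop-out difference. No group held the 4 samples needed to look for a library far from the others of its group.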

How the results depend on the processing

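No paired analysis was possible with the replicate number as a block, because that number is the factor compared; pairs were set by chemistry. Turnover from the deposited rate constants was not run, since its names are not paired with the table's identifiers. With 1031 genes called in counts under drop-out, DESeq2 called 290, a spread shared over the 12 labelled libraries 1766, all reads with introns 1744, unconverted reads 500 and converted reads 175. Alternatives chosen after seeing the data gave 23 (intronic reads) and 825 (libraries thinned to the smallest). Leaving out each library gave 318 to 973: 459 without TL replicate 1, 318 without TL replicate 2, 466 without TUC replicate 1 and 554 without TUC replicate 2. The unpaired fit called 755. In paired fits with a library left out, here and below, the chemistry term takes up its lone partner. The replicate difference then rests on the other pairs, so such fits are not separate checks of each library.

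Under improved handling 10 calls became 0 with DESeq2 and 3 to 9 with a library left out, the lower counts being 6 without SLAM replicate 2 and 3 without either TUC library. The 819 interaction calls became 383 with DESeq2 (55 higher, 328 lower) and 396 to 1054 with a library left out, lower by over 1.5 times whenever a TL or TUC library, or an improved-handling SLAM library, was the one left out. The 289 calls in converted share became 542 with at least 2 mismatches, 177 unpaired, 61 to 186 with a library left out and, chosen after seeing the data, 1 relative to library totals.

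Differences between the highest and lowest class, from the joint fit, were -0.14 for T content, -0.61 in 3436 genes with a mean of at least 100 reads over the 18 libraries (added after seeing the data), a set that genes can enter through improved-handling reads alone, and -0.23 to -0.05 with a library left out. For turnover they were -0.22, -0.26 with 10 classes, -0.46 in the same 3436 genes, -0.034 in unconverted reads and -0.26 to -0.18 with a library left out. For handling response the mean over chemistries was -0.43, -0.61 with 10 classes and -1.01 ± 0.18 in the 3436 genes. T per read reversed from 0.92 to -0.83 without the SLAM pair (range -0.83 to 2.06), and the ribosomal contig share from -3.18 to 3.64 (range -7.25 to 3.64). The intronic share reversed from 0.16 to -1.54 (STAR), -0.70 (HISAT2) and -0.28 (without chromosome 21 and unplaced contigs), and ranged from -0.29 to 1.01 without a pair. ENSG00000200488 reversed to -0.21 with STAR. The cause of these changes was not tested. Genes with few reads could show only large differences.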
